A study of Mus musculus with 2 samples.

Results

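Fragments of the 37 genes of the mitochondrial genome were counted in small RNA sequencing of J1, an embryonic stem cell line of the mouse strain 129S4/SvJae. The members are all genes of the GENCODE M21 annotation whose symbol starts with mt-, 37 of 55450 genes: 22 tRNA, 2 rRNA and 13 protein-coding genes. The cells were grown on gelatin in medium with 1000 U/mL LIF, a cytokine that sustains self-renewal, and received 1 µM SC1 (pluripotin, a small molecule inhibitor known to support self-renewal) or the solvent DMSO for 6 h. The study asked which miRNAs SC1 regulates, and each condition had 1 library. Tags in the DMSO list (18870345 reads) were 18 to 44 nt long and those in the SC1 list (1275599 reads) 3 to 17 nt, so that treatment and tag length cannot be told apart and no value below is a change under SC1. A tag was counted if it was 18 to 31 nt long (DMSO) or 15 to 17 nt long (SC1), occurred exactly and in sense in a mitochondrial gene and occurred in no nuclear transcript.

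Mammalian mitochondrial DNA is transcribed from both strands into long precursors in which tRNAs separate most rRNA and protein-coding sequences. The tRNAs are cut out at their 5′ end by mitochondrial RNase P and at their 3′ end by ELAC2. The sequence CCA, to which the amino acid is attached and which mitochondrial tRNA genes do not encode, is then added to the 3′ end by the enzyme TRNT1. The rRNAs and most mRNAs receive 3′ adenosines. The genome itself has no introns, so each position given below lies in the single exon of its gene.

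The most frequent fragments of the leading genes show how differently the 2 RNA classes were represented: an rRNA 5′ end, internal rRNA pieces, and tRNA pieces from the 5′ end, around the anticodon or from the 3′ side. Bases in capitals are the anticodon.
mt-Rnr2, DMSO, chrM:1094-1118, plus strand: actaatcctagccctagccctacac
mt-Rnr1, DMSO, chrM:743-761, plus strand: aacgttaggtcaaggtgta
mt-Rnr2, SC1, chrM:2238-2254, plus strand: ttgaaatttcggttggg
mt-Rnr1, SC1, chrM:744-760, plus strand: acgttaggtcaaggtgt
mt-Tp, DMSO, chrM:15373-15395, minus strand: cttTGGgtgctggtggtggggag
mt-Tp, SC1, chrM:15368-15384, minus strand: ggtggtggggagtagct
mt-Tc, DMSO, chrM:5214-5231, minus strand: ttGCAaattcgaaggtgt
mt-Tc, SC1, chrM:5215-5231, minus strand: ttGCAaattcgaaggtg
mt-Tg, DMSO, chrM:9418-9437, plus strand: actTCCaattagtagattct
mt-Th, DMSO, chrM:11572-11592, plus strand: actGTGaatctgacaacagga
mt-Tv, DMSO, chrM:1074-1093, plus strand: atgaccaatgaacactctga
mt-Tl1, DMSO, chrM:2676-2696, plus strand: attagggtggcagagccagga
mt-Tq, DMSO, chrM:3823-3842, minus strand: taggataaggtgtttaggta
The coordinates are those of GRCm38, from the match to GENCODE transcripts.

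Mitochondrial fragments made up 10811 of 18862866 DMSO reads of 18 to 31 nt, 0.0573% (exact 95% binomial interval 0.0562 to 0.0584), in 2833 distinct tags. In the SC1 list they made up 1008 of 1054495 reads of 15 to 17 nt, 0.0956% (interval 0.0898 to 0.102), in 219 distinct tags. Reversed tags, which measure chance, matched a mitochondrial gene in 0 reads of either list. The intervals cover the error of counting reads and no other error, since there was no second library and PCR copies of a molecule are not separated. The 2 rRNAs held most of these reads in each list. In DMSO they took 62.3% (interval 61.4 to 63.2), the 22 tRNAs 28.8% (28.0 to 29.7) and the 13 protein-coding genes 8.85% (8.32 to 9.40). In SC1 the rRNAs took 61.6% (58.5 to 64.6), the tRNAs 35.0% (32.1 to 38.1) and the protein-coding genes 3.37% (2.35 to 4.68). Per 100 nt of gene, the DMSO list held 266 reads for the rRNAs, 208 for the tRNAs and 8.39 for the protein-coding genes. The protein-coding share and density depend on the nuclear rule, which left out 1180 DMSO reads. With nuclear matches kept, mt-Co1, mt-Co2 and mt-Co3 together had 952 DMSO reads in place of 144. Genes that this rule made hardly countable, named below, stay in the length behind the density.

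**Figure D1:**
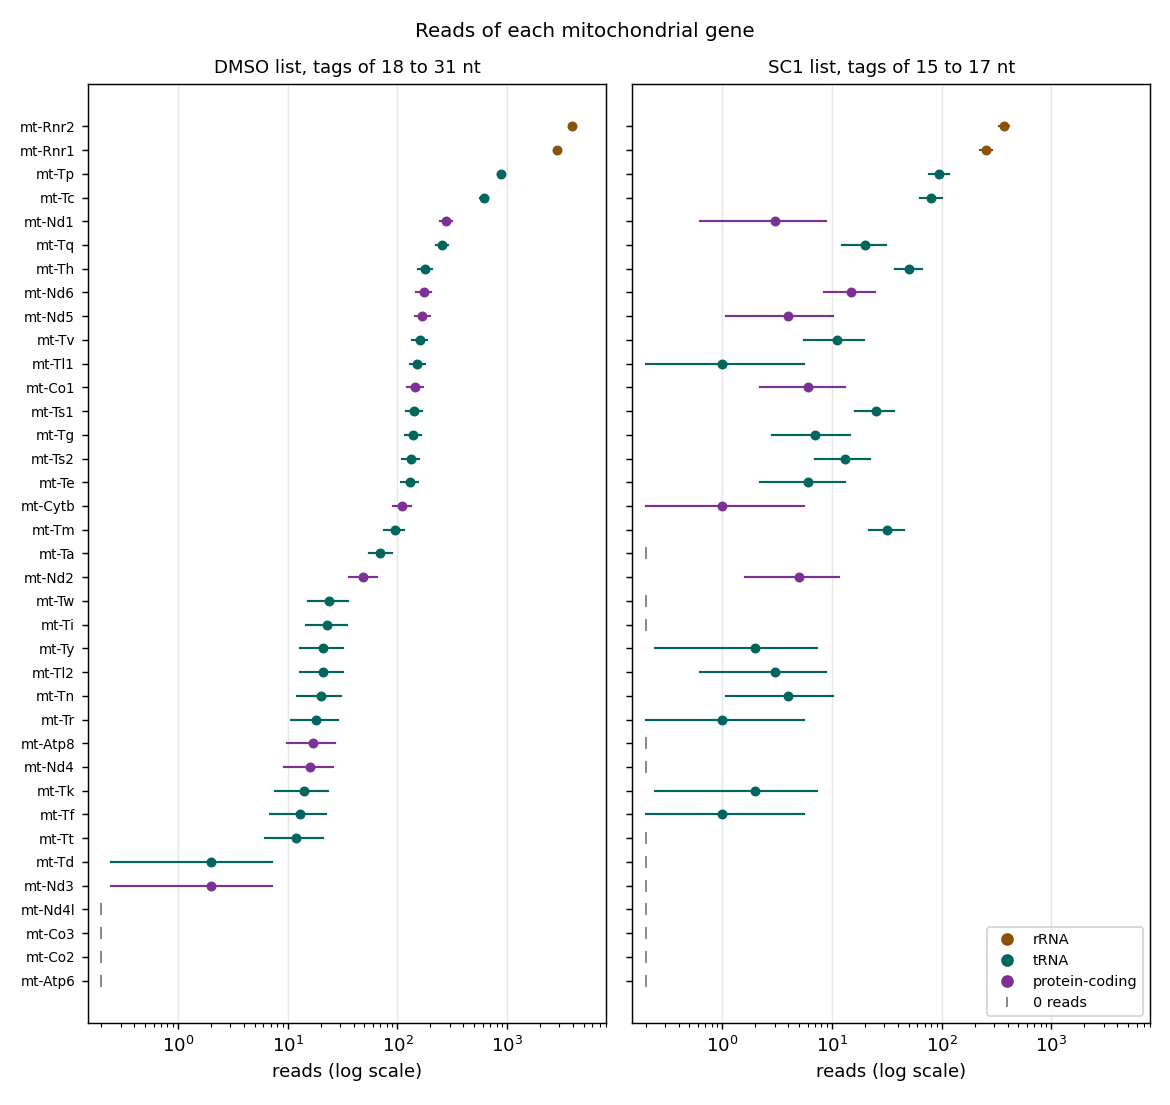
Reads of each of the 37 mitochondrial genes (rows, in the order of the DMSO reads) in the DMSO list (left) and the SC1 list (right), on a log axis; points are the reads of 1 library, lines their exact 95% Poisson intervals for counting error (drawn from 0.2 upwards), and grey ticks genes with 0 reads. mt-Rnr2 (3897 and 369 reads) and mt-Rnr1 (2840 and 252) lead both lists, followed by mt-Tp and mt-Tc.

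Of the 37 genes, 33 had reads in the DMSO list and 25 in the SC1 list. The order of the genes was alike in both (Spearman rho 0.834 over 37 genes, a description only, since the genes share a library, its depth and the length class). Part of this likeness comes from the nuclear rule, under which mt-Co2, mt-Co3, mt-Atp6 and mt-Nd4l had 0 reads in both lists. Of the SC1 reads, 1002 of 1008 (99.4%) lay inside a mitochondrial tag of the DMSO list, and 906 (89.9%) began at a base where a DMSO tag also began. DMSO tags covered 86.5% of the bases of mt-Rnr1 and 78.4% of those of mt-Rnr2, the leading genes. A high overlap can arise from this coverage alone, and the share to be expected was not computed. By counting error alone, the 12 genes with 0 SC1 reads could each hold up to 3 reads that meet the rule, or 0.000284% of the SC1 window. Reads that fail the rule are not limited by this. With nuclear matches kept mt-Co3 had 13 SC1 reads and mt-Tt 8, and mt-Tt had 47 with 1 substitution.

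mt-Rnr2, the rRNA of the large mitochondrial ribosomal subunit (positions 1094 to 2675, plus strand), had 3897 DMSO reads and 369 SC1 reads. The starts used most differed between its 2 lists, while 368 of the 369 SC1 reads lay inside a DMSO tag. In DMSO, 1274 reads (32.7%, interval 31.2 to 34.2) began at its first base, the base that follows mt-Tv in the precursor, and the fragments there were most often 25 nt long (288 reads of the tag printed above). In SC1, 7 reads (1.90%) began at that base. Instead, 240 SC1 reads (65.0%) began at bases 1145 to 1147 and 42 (11.4%) at bases 1373 to 1376. The tag of 17 nt that starts at base 1145 had 121 SC1 reads. It is too short for the DMSO list, which held 2 exact reads with that start. A further 42 DMSO reads were this tag followed by 1 A that the gene does not encode. Likewise 86 reads of 1 DMSO tag began at base 1376 and ended in 5 such A. Further DMSO starts clustered at bases 438 to 443 (428 reads) and 808 to 814 (264 reads).

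mt-Rnr1, the rRNA of the small ribosomal subunit (positions 70 to 1024, plus strand), had 2840 DMSO reads and 252 SC1 reads. A pair of internal sites led both lists. Starts at bases 514 to 520 gave 884 DMSO reads (31.1%) and 96 SC1 reads (38.1%). Starts at bases 670 to 676 gave 643 DMSO reads (22.6%), and starts at bases 672 to 677 gave 122 SC1 reads (48.4%). Reads from its first base were few, with 85 in DMSO (2.99%) and 9 in SC1 (3.57%). In DMSO the 5′ end thus held a smaller share of mt-Rnr1 than of mt-Rnr2, with intervals that do not overlap (2.40 to 3.69% against 31.2 to 34.2%).

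**Figure D2:**
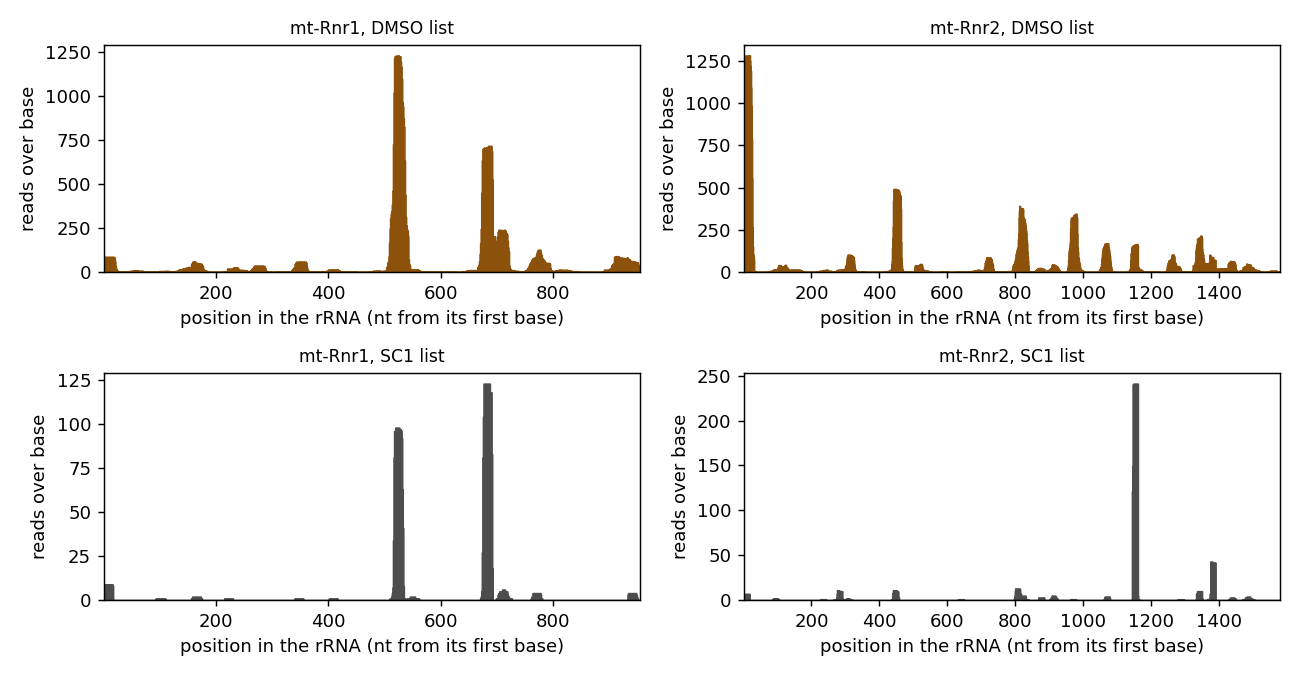
Exact reads over each base of mt-Rnr1 (left) and mt-Rnr2 (right), counted in nt from the first base, in the DMSO list (top) and the SC1 list (bottom), each with its own linear scale from 0. mt-Rnr1 shows the same 2 internal peaks in both lists, while the 5′ end of mt-Rnr2 leads in DMSO (1274 reads) and its bases 1145 to 1161 in SC1.

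Added adenosines were counted at the 3′ ends of fragments, as tags whose templated part is followed by 1 to 5 A that the gene does not encode. The count was chosen after seeing the data and needed 15 templated bases in DMSO and 12 in SC1. Reads without added A were counted only from 18 nt in DMSO and 15 nt in SC1. Shorter pieces without A are thus missing from the totals below, which can raise the shares. The lists differ in this limit, so their shares do not compare. Over all 37 genes the DMSO list held 1537 such reads, against 79 for added C (the tRNA ends left out), 35 for added G and 151 for added T. The SC1 list held 212 reads with added A, 6 with C, 4 with G and 8 with T. At the last base of mt-Rnr1, 224 of the 226 DMSO reads that reached it carried added A (99.1%, interval 96.8 to 99.9), 209 of them a single A. The base that follows in the genome is the C that opens mt-Tv. Inside mt-Rnr2, 180 of 307 DMSO reads that ended at base 1161 (58.6%) and 102 of 338 SC1 reads (30.2%) carried added A. At base 1390 of mt-Rnr2 the counts were 257 of 313 (82.1%) in DMSO and 63 of 104 (60.6%) in SC1. There 185 of the 257 DMSO reads had 2 to 5 A. Internal tRNA ends carried them too in DMSO: 74 of 84 reads at base 18 of mt-Ts2, 31 of 32 at base 30 of mt-Tm and 29 of 35 at base 25 of mt-Tl1. At bases 533 and 534 of mt-Rnr1 the counts were lower, with 20 of 87 and 12 of 61 DMSO reads, and 2 of 35 SC1 reads at base 533, whereas at its base 19 they were 18 of 21 DMSO reads. A single A after base 1390 of mt-Rnr2 cannot be told apart from the substitution T1391A (position counted from the first base of mt-Rnr2), which 42 of 49 DMSO reads carried in which base 1391 lay more than 2 nt from both ends. The most frequent tags with added A, in capitals, are shown because they are the ends that this count rests on.
mt-Rnr1, DMSO, 120 reads, templated part chrM:1001-1024: actggaaagtgtgcttggaataatA
mt-Rnr2, DMSO, 86 reads, templated part chrM:2469-2483: taatggttcgtttgtAAAAA
mt-Rnr2, DMSO, 42 reads, templated part chrM:2238-2254: ttgaaatttcggttgggA
mt-Rnr2, SC1, 75 reads, templated part chrM:2240-2254: gaaatttcggttgggA
Whether the adenosines were added in the cells or during library preparation was not tested.

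The 22 tRNA genes differed widely in reads. All 22 had reads in DMSO and 17 in SC1. The 8 tRNA genes encoded on the minus strand held 2134 of 3117 tRNA reads in DMSO (68.5%) and 232 of 353 in SC1 (65.7%). Their median was 136.5 DMSO reads a gene, against 23.5 for the 14 genes of the plus strand. The ranges overlapped (20 to 877 and 2 to 179 reads).

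mt-Tp, the proline tRNA (positions 15356 to 15422, minus strand), led with 877 DMSO reads (Poisson interval 820 to 937) and 95 SC1 reads. mt-Tc, the cysteine tRNA (5192 to 5257, minus strand), followed with 616 (568 to 667) and 80. mt-Tq, the glutamine tRNA (3772 to 3842, minus strand), had 257 (227 to 290) and 20. In DMSO these 3 genes did not overlap each other in their counting intervals. The third place changed when 1 substitution was allowed at any base of a tag, its ends included: mt-Tl1 had 308 DMSO reads, mt-Ts1 306 and mt-Tq 298. Of the substituted reads, 79 of 156 in mt-Tl1, 102 of 163 in mt-Ts1 and 23 of 41 in mt-Tq had the change more than 2 nt from both ends. The new order thus rests in part on changes at tag ends.

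The next genes did. mt-Th (histidine) had 179 DMSO reads, mt-Tv (valine) 159, mt-Tl1 (leucine) 152, mt-Ts1 (serine) 143, mt-Tg (glycine) 140, mt-Ts2 (serine) 132 and mt-Te (glutamate) 130, with intervals from 109 to 207 that overlap between neighbours. In SC1 mt-Th (50 reads), mt-Tm (methionine, 32) and mt-Ts1 (25) came next after mt-Tc, ahead of mt-Tq, mt-Ts2 (13) and mt-Tv (11). The 8 leading tRNA genes of the 2 lists shared mt-Tp, mt-Tc, mt-Tq, mt-Th, mt-Tv and mt-Ts1. mt-Tl1, with 152 DMSO reads, had 1 SC1 read. At the low end mt-Td (aspartate) had 2 DMSO reads and 0 SC1 reads.

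tRNA fragments were shorter than the DMSO list as a whole. Lengths of 18 to 20 nt held 44.6% of the tRNA reads, 24.1% of the rRNA reads and 21.3% of all DMSO reads. Lengths of 21 to 23 nt, where mature miRNAs lie, held 36.7% of the tRNA reads, 34.6% of the rRNA reads and 39.8% of all reads. Fragments of 27 to 31 nt made up 8.15% of the tRNA reads, 12.5% of the rRNA reads and 11.9% of all DMSO reads. Among the reads of protein-coding genes they made up 32.8%. That value rests in part on mt-Nd1, which had 208 reads from bases 579 to 583 and a most frequent length of 30 nt.

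Most tRNA fragments were internal. In DMSO, 546 of 3117 tRNA reads (17.5%, interval 16.2 to 18.9) began at the first base, 94 (3.02%) ended at the last encoded base without starting at the first, and 2477 (79.5%) did neither. Exact matching leaves out reads that go on with untemplated C, CC or CCA. With those 148 reads added, 242 of 3265 reads (7.41%, interval 6.54 to 8.36) reached the 3′ end, and the 2477 internal reads made up 75.9%. In SC1, 52 of 353 (14.7%, interval 11.2 to 18.9) began at the first base. The genes fell into kinds by the start they used most, counted over the 21 tRNA genes with 10 DMSO reads or more. In 7 genes it was the first base, among them mt-Ts2 (115 of 132 reads), mt-Tl1 (118 of 152), mt-Ts1 (87 of 143) and mt-Tq (145 of 257). In 6 genes it lay at bases 26 to 29, near the anticodon: mt-Tc, mt-Tp, mt-Tg, mt-Th, mt-Tr and mt-Tt. There mt-Tc had 452 reads from base 27 (73.4% of its reads), mt-Tp 541 from base 28 (61.7%) and mt-Tg 78 from base 28 (55.7%). In 4 genes, mt-Tf, mt-Tw, mt-Tn and mt-Tl2, it lay at bases 13 to 17. These kinds rest on exact reads, which leave out fragments with a substitution. In mt-Tw 33 DMSO reads were substituted at base 9 and so began before it, against 10 exact reads from base 14. In mt-Tt 86 DMSO reads were substituted at base 9 and 38 at base 29, against 4 exact reads from base 27. The place of both genes among the kinds is thus uncertain. Among the SC1 reads mt-Tc also began most often at base 27 (55 of 80), but mt-Tp began most often at base 39 (36 of 95), where the DMSO list had 2 reads, and mt-Th at base 13 (23 of 50) rather than 27.

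**Figure D3:**
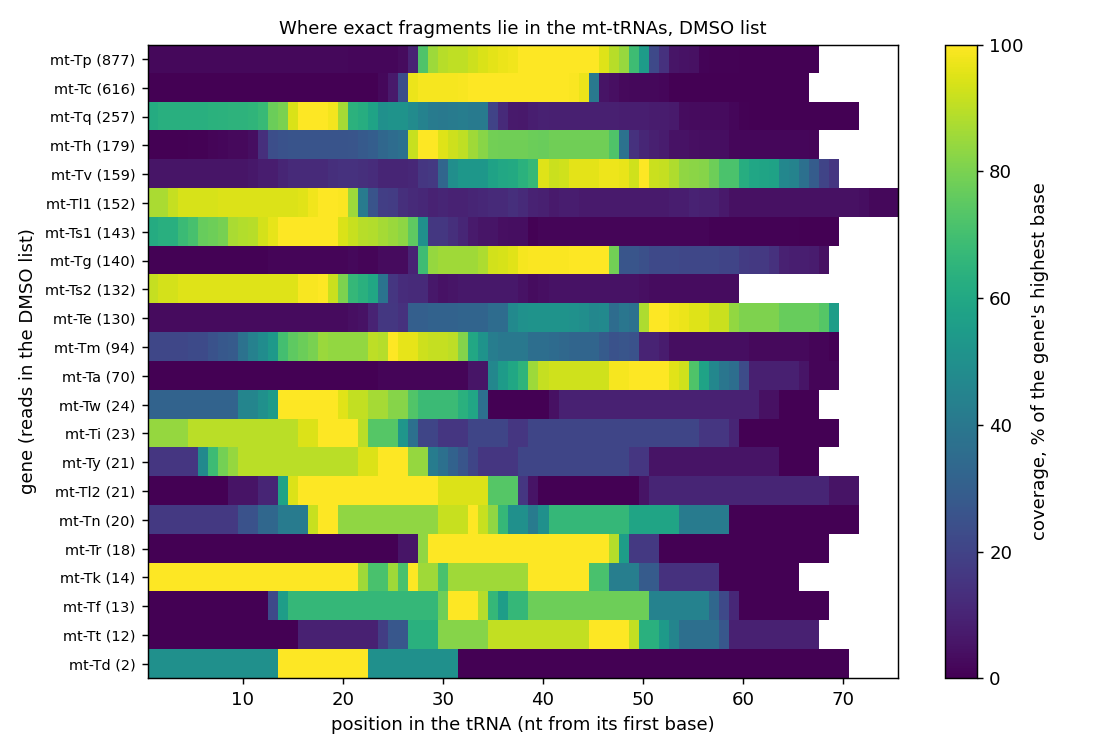
Exact DMSO reads over each base of the 22 mt-tRNAs, as a percentage of the highest base of the same gene, with genes ordered by their reads (in brackets) and white past the end of a gene. mt-Tl1 and mt-Ts2 are covered at the 5′ end, mt-Tp, mt-Tc and mt-Tg from about the anticodon on, and mt-Te at the 3′ end; genes with few reads, such as mt-Td (2 reads), rest on those few.

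The 3′ ends of the tRNAs carried added tails. In DMSO 242 reads reached the last encoded base of a tRNA, and 148 of them (61.2%, interval 54.7 to 67.3) went on with untemplated C (5 reads), CC (20) or CCA (123). Tailed reads came from 17 of the 22 genes and complete CCA from 16. All 123 DMSO reads with 3 untemplated bases in that place read CCA. The templated part before the tail was 16 to 28 nt long. Untailed ends were counted only from 18 nt, so that shorter ones are missing from the 242, which can raise the tailed share. mt-Tg had 27 CCA reads and 6 reads without a tail. mt-Tf (phenylalanine) had 20 tailed reads (15 CCA, 4 CC, 1 C), mt-Tm 18 (17 CCA), mt-Th 13 (9 CCA) and mt-Tt (threonine) 12 (9 CCA). mt-Tf and mt-Tm had 0 reads that ended without a tail.

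The untailed ends were uneven. mt-Te supplied 55 of the 94 untailed reads and had 7 with CCA, so that 11.3% of its 62 ends were tailed. mt-Tv had 20 untailed and 11 tailed reads. Without mt-Te, a choice made after seeing the data, 141 of 180 ends (78.3%, interval 71.6 to 84.1) were tailed. The share thus rests in part on this gene. The SC1 list held 4 reads at a tRNA 3′ end, of which 3 were tailed (CCA on mt-Tv and on mt-Te, C on mt-Ty), too few to place the share more closely than 19.4 to 99.4%. The mt-tRNA genes do not encode the capitals below, which are shown for the genes with the most tailed reads and for mt-Te, whose untailed counterpart was the more frequent.
mt-Tg, DMSO, 9 reads, templated part chrM:9439-9458: aataaacccagaagagagtaCCA
mt-Tf, DMSO, 7 reads, templated part chrM:51-68: aattgtatcccataaacaCCA
mt-Tm, DMSO, 7 reads, templated part chrM:3893-3913: gtttaaatccttcccgtactaCCA
mt-Th, DMSO, 7 reads, templated part chrM:11594-11612: ataaacctccttattcaccCCA
mt-Tt, DMSO, 4 reads, templated part chrM:15337-15355: atcttctcttctcaagacaCCA
mt-Te, DMSO, 5 reads, templated part chrM:14071-14090: ttgaatgctgtgtagaaataCCA
Tags that run across the border of 2 mitochondrial genes, on either strand, had 43 reads in DMSO and 4 in SC1. This count does not separate uncut precursors from antisense tags. Borders with bases outside the annotated genes between them could not be searched.

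**Figure D4:**
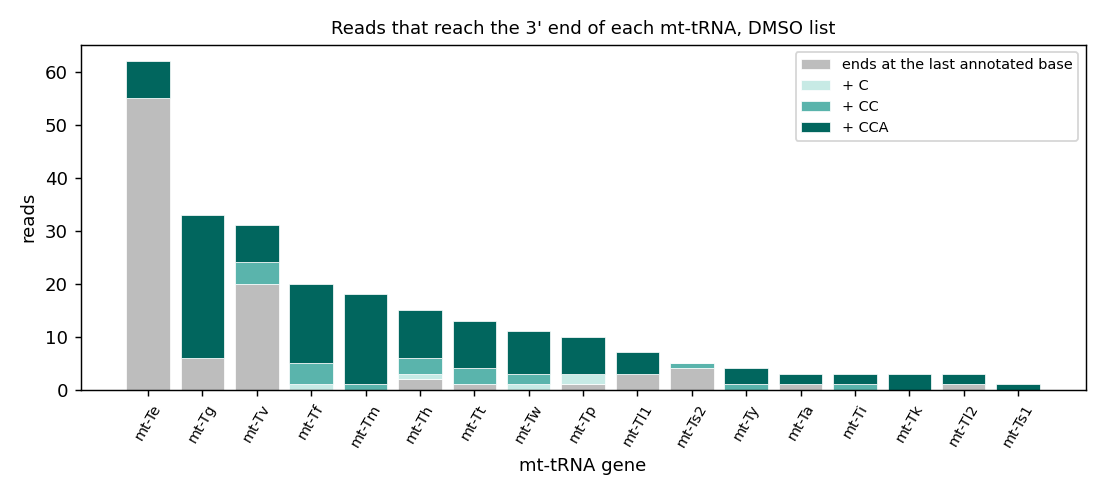
DMSO reads that reach the last encoded base of each mt-tRNA, stacked by what follows it: nothing (grey), C, CC or CCA (greens, darkest for CCA); the axis starts at 0 and genes without such reads are left out. CCA makes up most ends of mt-Tg, mt-Tf and mt-Tm, whereas 55 of the 62 ends of mt-Te carry no tail.

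Tags with 1 substitution showed that some tRNA bases were rarely read as encoded. Such tags had 1892 DMSO reads beside the 10811 exact ones, against 3 for reversed tags. In 735 of them the substitution was an A at the last base, which is the same tag as a single added A. In the SC1 list they had 275 reads, but reversed tags reached 89 there, so that the short tags are less certain. Substitutions were counted more than 2 nt from both ends of a tag. They were set over the exact and substituted reads in which the base lay as far inside, with exact tags shared with nuclear transcripts included. Among bases with 20 or more such DMSO reads, 11 of 577 in tRNAs, 1 of 764 in rRNAs and 0 of 569 in protein-coding genes were substituted in 10% or more of them. These limits were set after seeing the data. Positions below are counted from the first base of the gene, the encoded base first.

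The ninth base of the tRNA stood out in this count. Over the tRNAs that encode A there, 164 of 233 DMSO reads were substituted (70.4%, interval 64.1 to 76.2, 11 genes with reads). Over those that encode G it was 77 of 487 (15.8%, interval 12.7 to 19.4, 5 genes), of which mt-Tl1 supplied 61 of 253. Without mt-Tl1 it was 16 of 234 (6.84%, interval 3.96 to 10.9). These were 6 of 19 in mt-Ty, 3 of 28 in mt-Ti, 7 of 166 in mt-Tq and 0 of 21 in mt-Th. Over the tRNAs with C or T there it was 1 of 376 (0.266%, interval 0.00673 to 1.47, 3 genes). In mt-Tt 86 of 101 DMSO reads (85.1%) and 46 of 54 SC1 reads (85.2%) were substituted at this base, most often as A9T (58 and 22 reads). In mt-Tw (tryptophan) it was 33 of 41 DMSO reads, mostly A9T, and in mt-Tk (lysine) 16 of 25, mostly A9G. In mt-Tl1 it was 24.1%, mostly G9T. Of the tRNAs with A there, mt-Tv had 0 of 7 DMSO reads substituted and 3 of 3 SC1 reads, and mt-Te had 0 of 3 DMSO reads. As background, this base is known to be methylated in many mitochondrial tRNAs by TRMT10C, which is also a subunit of mitochondrial RNase P.

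Bases of the anticodon loop also stood out. In mt-Ts1 94 of 115 DMSO reads (81.7%, interval 73.5 to 88.3) were substituted at base 29, 83 of them as C29T, and in mt-Tt 38 of 46 (82.6%, interval 68.6 to 92.2), 34 as C29T. Both are position 32 in the standard tRNA numbering, counted from the anticodon. In these 2 tRNAs that cytidine is known to be methylated by METTL8. In mt-Tp 150 of 965 DMSO reads (15.5%, interval 13.3 to 18.0) and 7 of 27 SC1 reads were substituted at base 34, mostly as G34T. It is the base after the anticodon, position 37 in the standard numbering, a guanosine known to be methylated in this tRNA. In mt-Tq 9 of 63 DMSO reads (14.3%, interval 6.75 to 25.4) were substituted at base 33, the first base of the anticodon, mostly as T33G. Apart from these, mt-Tl1 had 17 of 28 DMSO reads substituted at base 28, mostly G28T, a base that lies before its anticodon loop. Methylation was not measured here, and neither a base difference between strain 129S4/SvJae and the reference nor reads from other tRNA copies was tested. The substituted tags are shown with the changed base in capitals.
mt-Tt, DMSO, 29 reads (5 with the encoded base), chrM:15289-15311: gtcttgatTgtataaacattact
mt-Tl1, DMSO, 21 reads (59 with the encoded base), chrM:2676-2696: attagggtTgcagagccagga
mt-Tw, DMSO, 7 reads (1 with the encoded base), chrM:4950-4968: agaagtttTggatatacta
mt-Tt, DMSO, 17 reads (2 with the encoded base), chrM:15315-15337: gtTttgtaaacctgaaatgaaga
mt-Ts1, DMSO, 8 reads (0 with the encoded base), chrM:6907-6929: atataggatatgagattggTttg
mt-Tp, DMSO, 26 reads (203 with the encoded base), chrM:15373-15395: ctttggTtgctggtggtggggag
The exact rule thus leaves out most reads of mt-Tt, which had 12 exact DMSO reads (24 with nuclear matches kept) and 148 with 1 substitution. In SC1 it had 0 exact reads (8 with nuclear matches kept) and 47 with 1 substitution. mt-Ts1 had 143 exact and 163 substituted DMSO reads, and mt-Tl1 152 and 156. Of the substituted reads, 102 in mt-Ts1 and 79 in mt-Tl1 had the change more than 2 nt from both ends. For mt-Tt it was 126 of the 148 in DMSO and 46 of the 47 in SC1.

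**Figure D5:**
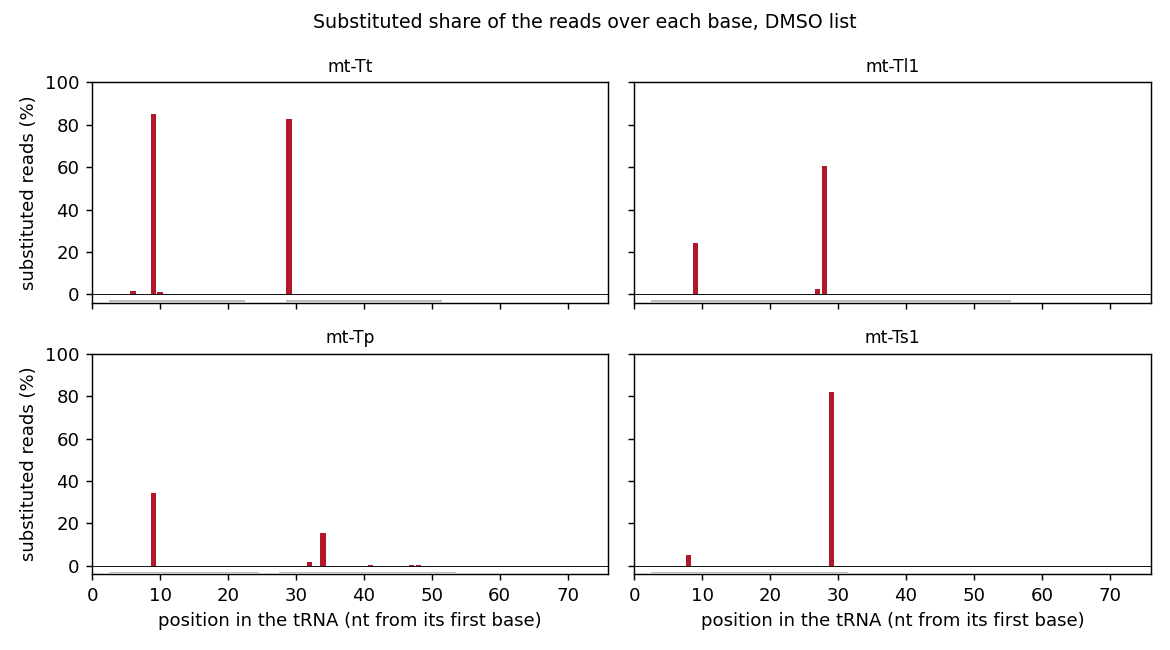
Share of DMSO reads with a substitution at each base of mt-Tt, mt-Tl1, mt-Tp and mt-Ts1 (red bars, in %, counted in nt from the first base); the grey strip under each axis marks the bases with 20 or more reads, and other bases are not shown. The ninth base is substituted in mt-Tt (85.1%), mt-Tl1 (24.1%) and mt-Tp (34.3%) and base 29 in mt-Tt and mt-Ts1 (82.6% and 81.7%), while mt-Ts1, which encodes C at its ninth base, has 0 of 162 reads substituted there.

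The 13 protein-coding genes, which encode subunits of the respiratory chain and of ATP synthase, had 957 DMSO reads and 34 SC1 reads. The count depends on nuclear copies of mitochondrial DNA. Of the 18 nt words of mt-Co2 0% occurred in no nuclear transcript, of those of mt-Co3 0.130%, of mt-Atp6 0.452%, of mt-Nd4l 1.07% and of mt-Nd3 1.81%, so that these genes could hardly be counted by the rule. With nuclear matches kept, mt-Co3 had 223 DMSO reads, mt-Co2 204, mt-Nd4l 59, mt-Atp6 41 and mt-Nd3 35, in place of 0, 0, 0, 0 and 2. The pseudogenes Gm13340, Gm28437 and Gm28661 were the nuclear genes with the most shared DMSO reads (353, 223 and 204).

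mt-Nd1, a subunit of complex I (positions 2751 to 3707, plus strand), led the countable genes with 277 DMSO reads, 208 of them (75.1%) from bases 579 to 583. Its most frequent fragment was 29 nt long (63 reads).
mt-Nd1, DMSO, chrM:3331-3359, plus strand: accgggcccccttcgacctgacagaagga
In SC1 mt-Nd1 had 3 reads. mt-Nd6, the only protein-coding gene on the minus strand (13552 to 14070), had 173 DMSO reads. Under the nuclear rule it led the protein-coding genes of the SC1 list with 15. Its reads were spread, with at most 9 DMSO reads from 1 base. mt-Nd5 had 169 DMSO reads, and mt-Co1, a subunit of complex IV, 144, or 525 with nuclear matches kept. mt-Cytb of complex III followed with 110. In SC1 mt-Co1 had 6 reads, mt-Nd2 5 and mt-Nd5 4. With nuclear matches kept mt-Co1 had 20 SC1 reads and mt-Nd6 18, so that the lead of mt-Nd6 there depends on the nuclear rule. All 17 DMSO reads of mt-Atp8 began at its first base. By complex, the 7 complex I genes had 686 DMSO reads and the 3 complex IV genes 144, and with nuclear matches kept 884 and 952, so that the order of the 2 complexes turned.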

How the data were processed

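Small RNA of 1 DMSO and 1 SC1 library was analysed. For each library the authors deposited the length, the raw read count and the sequence of every distinct tag. The submitters' processing notes name mm9. How tags were trimmed, filtered by length or aligned is not given in the sources used here. A line holding only the total of the DMSO list was left out. Tags were matched exactly to GENCODE M21 transcripts (GRCm38). A tag that matched a nuclear transcript in sense was left out, and 0 tags were shared by mitochondrial genes. Untemplated bases were judged against the 15365 bases of mitochondrial DNA that the genes cover. Neither nuclear tRNAs, a nuclear genome nor the control region was used here. The members, lists and alternatives were chosen with earlier results of these data known; no test was possible with 1 library per condition. The text names both rRNAs, the 8 tRNA and 4 protein-coding genes with the most reads in each list and the 5 tRNAs with the most tailed reads; mt-Te, mt-Td, mt-Ti, mt-Tw, mt-Tk, mt-Tr, mt-Tn, mt-Tl2, mt-Ty, mt-Cytb, mt-Atp8 and the genes shared with nuclear transcripts were named after their values were seen. Intervals are exact binomial (Clopper-Pearson, 95%) or Poisson, and 0 reads were taken to allow up to 3. On simulated tags the assignment returned the drawn reads without a nuclear match for 37 of 37 genes and the CCA tails of 22 of 22 tRNAs. Reads that the nuclear rule removes were left out on both sides. The check therefore cannot show how much of a gene this rule hides. For 200 of 200 tags a plain search of the nuclear transcripts gave the same answer. The counts of added A and of substitutions and the ranges of start sites were chosen after seeing the data. The alternatives were a minimum of 10 reads, distinct tags, nuclear matches kept, other lengths, 1 substitution, a longer templated part and shared tags left out. The software was scipy 1.17.1 and numpy 2.4.6 under Python 3.11.15, with matplotlib 3.10.9 for figures.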

Additional observations from a re-analysis of the deposited data

Results flagged for a closer look

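Tags antisense to mitochondrial genes lay outside the counts of the report. The DMSO list held 2057 such reads in 1620 distinct tags, and 89.5% of them lay opposite protein-coding genes. The largest of these tags had 12 reads, so that antisense tags averaged 1.27 reads each and sense tags 3.82. Genes of the plus strand were opposite to 92.1% of the antisense reads. The SC1 list held 177 antisense reads, 39 of them in 1 tag of 17 nt opposite mt-Ti. The rRNAs had 36 antisense reads in DMSO and 1 in SC1. DMSO tags of 32 to 44 nt held 5 mitochondrial reads of 7479 (0.0669%, interval 0.0217 to 0.156), 3 of them of mt-Nd1. All 3 values were above the limit of 3 reads that a count of 0 allows, and there was no control to set them against.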

How the results depend on the processing

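No paired analysis was possible because neither condition had a second library. The search of the nuclear genome was not run, and no SC1 value exists for tails with tags of at least 10 reads. Values are called moved where they left the counting interval of the main value, which 23 of 41 did under the planned settings; the cause was not tested. Leaving out mt-Te or mt-Tl1 and adding tailed reads were chosen after seeing the data. The mitochondrial share (0.0573% DMSO, 0.0956% SC1) was 0.313% and 0.329% by distinct tags, 0.0336% and 0.0619% when tags under 10 reads were dropped, 0.0636% and 0.103% with nuclear matches kept, 0.0673% and 0.122% with 1 substitution allowed, and 0.105% in 17 nt SC1 tags. The tRNA part of it (28.8% and 35.0%) was 23.2% and 38.8% by distinct tags, and 33.2% and 25.2% when tags under 10 reads were dropped. In DMSO it was also 26.3% with nuclear matches kept, 30.5% at 18 to 26 nt and 32.5% with 1 substitution, and in SC1 39.4% at 17 nt. The share of tRNA reads from the first base (17.5% and 14.7%) was 13.4% by distinct tags, 15.0% at 18 to 26 nt and 22.8% with 1 substitution in DMSO, and 19.5% with tags of at least 10 reads in SC1. The tailed share of DMSO tRNA ends (61.2%) was 76.6% by distinct tags, 78.3% without mt-Te and 0% with tags of at least 10 reads, since no tailed tag had that many. With nuclear matches kept, 3 of 28 gene counts moved, those of mt-Co1 (525 reads in DMSO, 20 in SC1) and of mt-Nd5 in DMSO (221).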
